A study of Mus musculus with 9 samples.

Results

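MicroRNA genes were read on a whole-transcriptome array in RNA from the endothelium, the cell sheet that lines the vessel, of mouse thoracic aortas. The microRNA transcript clusters, the array's summary features for a gene or transcript region, were the rows whose array annotation gave exactly 1 symbol of a microRNA gene (Mir followed by a digit, or Mirlet7), with host-gene symbols ending in hg left out. There were 641 such rows of 65956 transcript clusters in all, with 595 different symbols. Groups were ACDiEKO, female mice that carried floxed Mef2a, Mef2c and Mef2d and the tamoxifen-inducible recombinase Cdh5-CreERT2, which the endothelial Cdh5 promoter drives, and control, female littermates with the same floxed alleles and no recombinase. Both groups were 10 weeks old at the first of 5 daily tamoxifen injections. For the day of harvest, counted from the start of tamoxifen, the labels give both 7 (in the text on the series) and 14 (in the protocols of the samples). Each of the 9 arrays (4 control, 5 ACDiEKO) held RNA flushed from the lumen of 1 aorta. Because no control animal had Cre, effects of Cre activity and of MEF2 loss cannot be told apart.

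MicroRNAs are short RNAs that guide Argonaute proteins to messenger RNAs, mostly through their seed, the bases next to the 5′ end, and lower the output of those messages. They are cut from long primary transcripts, first by Drosha in the nucleus and then, after export by exportin 5, by Dicer in the cytoplasm. Many lie in clusters that are transcribed together, or in introns of protein-coding genes. In endothelium, microRNAs such as miR-126, miR-10, miR-23/27/24, miR-30, miR-99/100, miR-125b and miR-181 are known for roles in flow responses, inflammation and vessel growth. The array labels the RNA in the sample along its length and holds probes for the gene region. A value here is thus read as primary or precursor transcript and is not a measure of the mature microRNA. For some rows, described below, the identifier or shared values do not tie the signal to the microRNA's own locus.

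The mature sequences on which the results below turn are given first, from RefSeq (GRCm38.p6), with the seed (bases 2 to 8) in capitals. The first set comes from 3 loci whose clusters had lower means in ACDiEKO, of which Mir125b-2 alone passed the test. It is shown because the loci do not share their seeds, while the 2 microRNAs of the miR-181 pair and of the miR-30 pair do.
miR-99a-5p: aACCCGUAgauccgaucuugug
let-7c-5p: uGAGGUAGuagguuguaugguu
miR-125b-5p: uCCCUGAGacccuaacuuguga
miR-181a-5p: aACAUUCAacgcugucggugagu
miR-181b-5p: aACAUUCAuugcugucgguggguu
miR-30a-5p: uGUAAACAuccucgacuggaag
miR-30c-5p: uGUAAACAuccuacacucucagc
In the second set, the microRNAs of 2 clusters that rose stand beside relatives of the same seed.
miR-15a-5p: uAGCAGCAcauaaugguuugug
miR-16-5p: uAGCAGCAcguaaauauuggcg
miR-15b-5p: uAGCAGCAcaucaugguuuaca
miR-130a-3p: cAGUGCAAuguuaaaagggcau
miR-130b-3p: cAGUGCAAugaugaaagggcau
The third set holds microRNAs of 3 clusters that passed the test as lower.
miR-665-3p: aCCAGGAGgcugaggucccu
miR-465b-5p: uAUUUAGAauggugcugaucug
miR-1192: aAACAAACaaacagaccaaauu
The last set belongs to the brightest rows, some of whose sequences recur in other places.
miR-703: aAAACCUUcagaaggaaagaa
miR-3470b: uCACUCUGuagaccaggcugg
miR-3473a: uGGAGAGAuggcucagca
miR-1954: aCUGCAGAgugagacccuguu

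Values are the deposited log2 values, whose range reaches 19.34, beyond the 16 log2 units of a 16-bit scanner. The step that set this scale is not given in the sources used here, so differences are stated in log2 units, never as folds. ACDiEKO replicates 1 and 2 were nearly identical: over bright clusters their difference had a robust SD of 0.0719, while 15 other pairs within a group gave 0.269 to 0.398. They were averaged and counted as 1 sample, which left 4 control and 4 ACDiEKO samples. The second control array whose title carries the number 3 is called control replicate 4. Animal numbers in the titles of control replicates 3 and 4 lie apart from those of all other arrays. Over the 641 microRNA rows, sample medians were 6.48 to 6.60 in control and 6.44 to 6.52 in ACDiEKO. The floxed genes were not lower in ACDiEKO, with differences of 0.12 for Mef2a, 0.06 for Mef2c and 0.23 for Mef2d (limma, adjusted p = 0.526, 0.697 and 0.175), and as these values summarise whole transcripts they do not check the labels. Means of the 5 measured endothelial markers were 14.65 to 14.94 in control and 14.40 to 14.70 in ACDiEKO, with 1 of the 5 passing as lower. The mean of 6 smooth muscle markers was 9.43 to 10.90 in control and 11.36 to 12.68 in ACDiEKO, and 4 of the 6 passed the test as higher. The mean of the 3 measured fibroblast markers was 8.98 to 9.429 in control and 9.43 to 10.28 in ACDiEKO, with 0 passing. The mean of 4 leukocyte markers was 7.12 to 7.71 in control and 7.50 to 10.10 in ACDiEKO, highest in replicate 5, with 0 of 4 passing. The 1 measured erythrocyte marker was 9.99 to 11.89 in control and 9.61 to 11.59 in ACDiEKO and did not pass. Brown fat markers ranged from 9.25 to 12.30 in control and 7.64 to 10.96 in ACDiEKO and mesothelial markers from 6.004 to 7.39 and 6.35 to 8.38, with none passing. In such bulk RNA, fewer cells of a type and less RNA per cell cannot be told apart, and the part of these other cells in the results below was not tested.

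MicroRNA rows spanned nearly the whole range of the array's signal, with a median slightly above that of the table. Their median level, the mean over the 8 samples, was 6.61, with the middle of the distribution between 5.09 and 8.08 and the extremes at 3.19 and 18.57. All transcript clusters had a median of 6.04, and the array's 23 antigenomic background features, probes that match no mouse sequence, had a median of 3.64 with a 95th percentile of 5.92. A total of 359 of the 641 rows (56.01%) lay above the median of the table (6.03) in both groups, against 48.47% of all clusters, and 256 lay at or below it in both. At the 75th percentile of the table (8.20), 142 rows were above in both groups. Against the 95th percentile of the background features, 374 were. Another 5222 array features, with neg in their identifier, were brighter, with a median of 7.37 against 6.61 for the microRNA rows. They were not used as a mark. The counts above a mark thus describe signal and do not show which rows were detected. Different probes bind with different strength, so the order of these levels is a description of the signal and not an order of abundance.

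**Figure D1:**
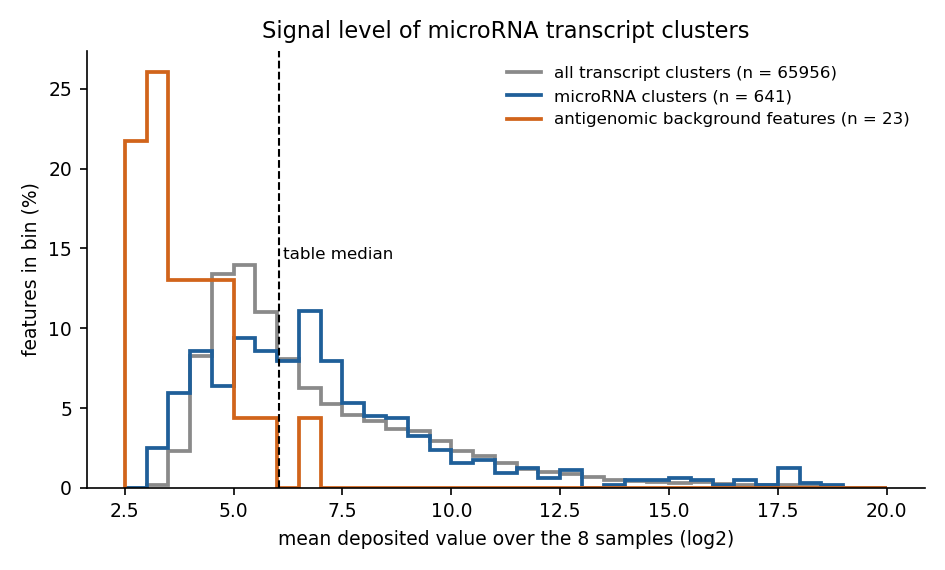
Distribution of mean log2 values (x axis, bins of 0.5) for 641 microRNA clusters, 65956 transcript clusters and 23 antigenomic background features, each as a percent of its own set (y axis); the dashed line is the table median. MicroRNA rows spread over both sides of the median, and a small group of rows stands far to the right, up to 18.57.

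The very brightest rows were not the well-known endothelial microRNAs. Mir703 led with 18.57, followed by a row of Mir3470b (TC0700004601.mm.1) with 18.23, Mir3473a with 18.17 and Mir669e (TC0800002101.mm.1) with 17.69. Next came Mir684-1 with 17.65 (TC0200003841.mm.1), Mir684-2 with 17.58, and 5 rows of Mir684-1 that shared 1 set of values, with 17.57. None of these 11 brightest rows, the last 5 of them tied, passed the test; their differences ran from -0.13 (Mir3473a) to 0.33 (Mir669e). Of the 30 brightest rows, 18 carry in their row identifier a chromosome other than the one RefSeq gives for the microRNA. Over all members, 34 of 603 rows with both chromosomes known disagreed in this way, and their median level was 14.10, against 6.40 for the 569 that agreed.

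Sequence copies went with high signal in the same way. Each member's RefSeq hairpin, or mature sequence where no hairpin was given, was cut into words of 18 bases, and both strands were looked up in 32851 promoter windows of 300 bases from RefSeq, the microRNA's own window left out. No word was found for 450 members, whose median level was 5.98. The 48 members with words in 1 to 9 windows had a median of 7.43, and the 19 with words in 10 or more had 10.86. Words of the Mir3473a gene were found in 72 windows, those of Mir1954 in 96, those of Mir3470b in 22 and those of Mir703 in 1. The letters printed above are the mature sequences, so where a hairpin was searched the count can come from other letters. A match describes the searched letters only. The 124 members without a RefSeq sequence, among them Mir669e and the Mir684 rows, had a median of 7.96 and could not be searched. Rows can also be copies of each other: 66 of the 641 shared all their values with another microRNA row, which left 599 distinct profiles. Such rows, and near-identical families such as Mir466, Mir467, Mir669 and Mir297, cannot be read as separate genes. By GC content of 476 hairpins, split into 3 parts of equal size, the median levels were 6.17, 5.99 and 6.28 from low to high GC.

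The lists of known microRNA groups differed in how many of their rows lay above the table median in at least 1 group. In the endothelial and flow list 21 of 36 rows were above it, and in the let-7 family 9 of 11. In the region between Dlk1 and Dio3 on chromosome 12, an imprinted locus with one of the largest microRNA arrays of the genome, 21 of 40 were. Of the list for smooth muscle and fibroblasts 4 of 8 rows were above it, of muscle microRNAs 3 of 10, of blood cell microRNAs 3 of 7, and of microRNAs typical for other tissues 4 of 28. The median level of that last list was 4.56. The muscle-specific Mir208a (3.20), Mir208b (3.60) and Mir133a-2 (3.31) were near the bottom of the table. Mir126a, the gene of miR-126, is not among the rows with a single symbol, and a row that names its host Egfl7 with other symbols had a difference of -0.37 (limma, adjusted p = 0.335).

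ACDiEKO was set against control to ask which microRNA loci differ in mice made to lose MEF2A, MEF2C and MEF2D from endothelium. Mir130a, Mir15a and a row of Mir680-3 rose, and Mir125b-2, Mir1192, Mir665, Mir465b-2, Mir8117, Mir7230 and Mir1956 fell. These 10 of 641 rows (1.56%) passed limma with Benjamini-Hochberg adjustment over all transcript clusters at 0.05, where 4.28% of all clusters passed (1.96% higher, 2.32% lower). The share among microRNA rows was thus below that of the table. Without adjustment, 113 rows had p below 0.05. In 55 rows (8.58%; 12 higher and 43 lower) the groups did not overlap, against 12.3% of all clusters (4.74% higher, 7.55% lower). A difference of at least 1 was seen in 16 rows, 2 higher and 14 lower (2.5%, against 3.16% of all clusters), and 568 rows differed by less than 0.5. The median difference was -0.07 over the microRNA rows and -0.04 over all clusters, and 63.2% and 62.3% of them lay below 0; after centring each array on its median these medians were -0.01 and 0.02. The share of rows below 0 was close to that of the whole table.

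**Figure D2:**
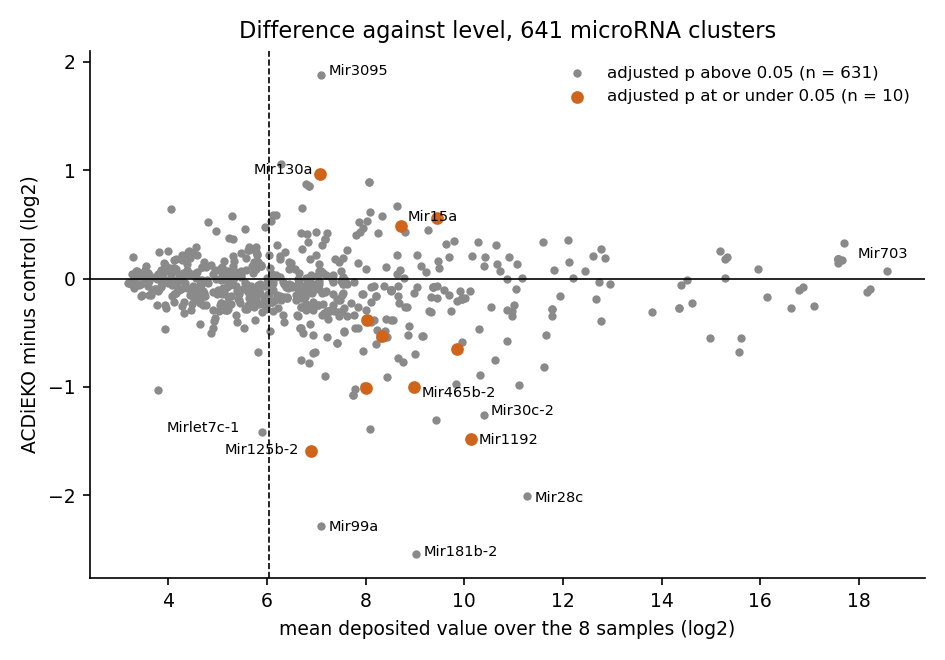
Difference between ACDiEKO and control (y axis, log2) against mean level (x axis, log2) for the 641 microRNA clusters, with the 10 that passed limma at an adjusted p of 0.05 in orange and the table median as a dashed line. All 10 lie to the right of the line, and several larger differences, such as -2.54 for Mir181b-2, belong to rows that did not pass.

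The calls lay in the brighter rows. With the rows split by level into 4 parts, none of the 161 dimmest (3.19 to 5.09) or the next 160 (5.11 to 6.61) passed, while 4 passed among the next 160 and 6 among the 160 brightest. When only clusters above the table median in at least 4 samples were tested, 26 of 374 microRNA rows (6.95%) passed, against 12.1% of all such clusters. Above the 75th percentile, 18 of 153 rows (11.76%) passed, against 19.2%. Filtered or not, the share stayed below that of the table in these fits. The differences of microRNA rows were less precise, with a median standard error of 0.147 against 0.102 over all clusters. Their median absolute difference was 0.167 against 0.114, so the lower share of calls does not mean smaller differences. The calls depended on single samples: without control replicate 3, 2 of the 10 rows still passed (Mir15a and Mir465b-2), without ACDiEKO replicate 4, 3 did (with Mir130a), without control replicate 2, 4 did (with Mir1192), and without control replicate 4 or ACDiEKO replicate 5, 6 did. Without both controls of the separate animal numbers, 0 of 641 rows passed limma (92 at an unadjusted p below 0.05), and with these numbers as a term in the model Mir465b-2 and Mir665 passed. All 10 kept their direction in the fits that tested them; the filter at the 75th percentile left 4 of them untested.

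The neighbours miR-99a, let-7c and miR-125b-2 were all lower in ACDiEKO on average, and Mir125b-2 fell. They lie on chromosome 16 downstream of Mir99ahg, a long non-coding RNA named for them as their host, in the order Mir99a (mature miR-99a-5p at chr16:77598940-77598961), Mirlet7c-1 (let-7c-5p at chr16:77599672-77599693) and Mir125b-2 (miR-125b-5p at chr16:77646279-77646300; RefSeq GRCm38.p6, plus strand). miR-99a and miR-125b are known for restraining growth signalling and inflammation, and let-7 for opposing proliferation. Mir125b-2 was 7.67, 7.87, 7.95 and 7.29 in control replicates 1 to 4 and 5.48 (mean of replicates 1 and 2), 6.75, 5.91 and 6.28 in the ACDiEKO samples. Every ACDiEKO sample was below every control, and the difference was -1.59 ± 0.28 (standard error, n = 4 and 4; limma, adjusted p = 0.0255).

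Mir99a was 7.50, 7.63, 8.90 and 8.92 in control and 4.81, 6.42, 5.38 and 7.21 in ACDiEKO. The groups did not overlap, and replicates 3 and 4 were the high controls, but the spread was wide and the difference of -2.28 ± 0.59 did not pass (limma, adjusted p = 0.0875). Mirlet7c-1, whose row was dimmer, was 6.25, 5.95, 6.99 and 7.30 in control and 4.63, 6.18, 5.07 and 4.92 in ACDiEKO, with 1 ACDiEKO sample above a control and a difference of -1.42 ± 0.42 (adjusted p = 0.12). Mir99ahg, chosen after its value was seen, was 8.53, 8.40, 9.03 and 9.17 in control and 7.47, 8.05, 7.51 and 7.94 in ACDiEKO, again without overlap. It fell by 1.04 (limma, adjusted p = 0.0438). The seed relatives at other loci differed less: Mir100, with the seed of miR-99a, by -0.05 (adjusted p = 0.919), and Mir125b-1, with that of miR-125b, by 0.15 (adjusted p = 0.559, at a level of 4.72). The differences between these loci were not tested.

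The miR-181 pair on chromosome 2 held the largest difference among the 641 rows. miR-181 is known in endothelium for damping NF-kB signalling. Mir181b-2 (miR-181b-5p at chr2:38853845-38853868, plus strand) was 10.04, 9.81, 10.58 and 10.74 in control and 8.77, 8.69, 7.16 and 6.40 in ACDiEKO. Controls lay close together and above all ACDiEKO samples, which spread over more than 2 log2 units, and the difference of -2.54 ± 0.56 did not pass (limma, adjusted p = 0.053). Mir181a-2, just upstream (miR-181a-5p at chr2:38852741-38852763), was 7.26, 6.62, 6.92 and 7.45 in control and 6.57, 6.26, 6.42 and 5.98 in ACDiEKO. It had no overlap either, and a difference of -0.75 ± 0.20 (adjusted p = 0.0941). The copies of the same seed on chromosome 8 had differences of 0.09 for Mir181d (adjusted p = 0.642) and -0.46 for Mir181c (adjusted p = 0.105, at a level of 5.54).

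Mir30a and Mir30c-2 are neighbours on chromosome 1, and the miR-30 family is among the abundant endothelial microRNAs and is known in vessel sprouting and flow responses. Mir30a was 12.10, 11.37, 11.39 and 11.56 in control and 10.45, 11.26, 10.47 and 10.31 in ACDiEKO. ACDiEKO replicate 3 came within reach of the controls without crossing them, and the difference was -0.98 ± 0.25 (limma, adjusted p = 0.0804). Mir30c-2 was 10.50, 11.29, 11.21 and 11.11 against 9.14, 10.84, 9.88 and 9.19, with the same sample inside the control range and a difference of -1.26 ± 0.39 (adjusted p = 0.136). None of the 4 other family rows below passed. Mir30c-1 and Mir30e, in the Nfyc gene on chromosome 4, had differences of 0.16 and 0.47 (adjusted p = 0.755 and 0.368), and Nfyc itself 0.01. Mir30b and Mir30d on chromosome 15 had -0.26 and -0.18 (adjusted p = 0.267 and 0.297).

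**Figure D3:**
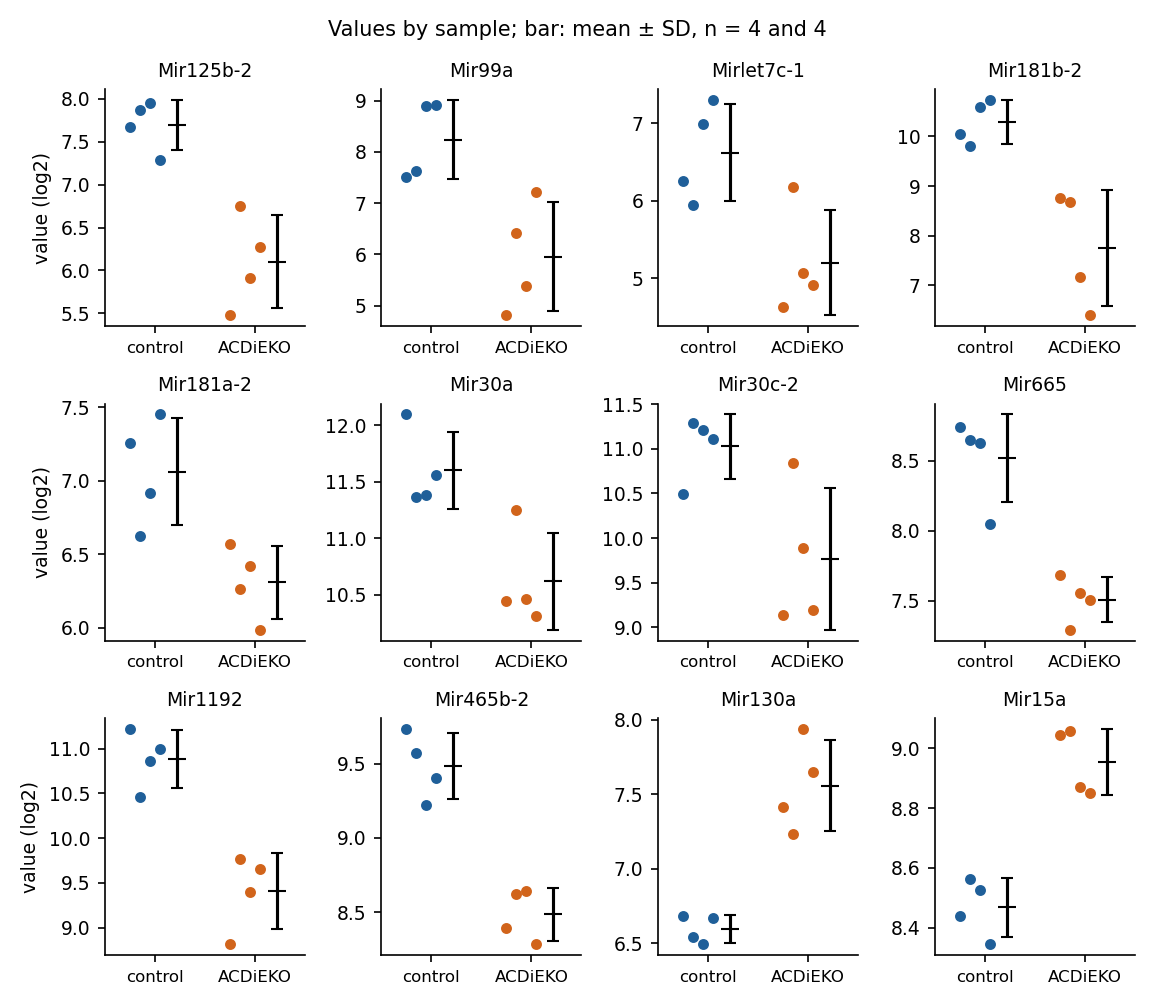
Deposited values (y axes, log2, each panel with its own range) of 12 microRNA clusters in 4 control and 4 ACDiEKO samples, with mean ± SD to the right of the points. Points of both groups are separate in all panels other than Mirlet7c-1 and Mir30c-2, and Mir130a and Mir15a are the panels in which ACDiEKO is higher.

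Among the rows that rose, Mir15a was 8.44, 8.56, 8.53 and 8.34 in control and 9.04, 9.06, 8.87 and 8.85 in ACDiEKO. miR-15a is known as a brake on the cell cycle and on Bcl2, and its gene lies with that of miR-16-1 in the Dleu2 transcript on chromosome 14 (miR-15a-5p at chr14:61632075-61632096, minus strand). The samples of each group lay close together and apart from those of the other, with a difference of 0.49 ± 0.07 (limma, adjusted p = 0.0153). A row that names Dleu2 with another symbol had a difference of -0.26 (adjusted p = 0.299). Of the microRNAs with the same seed, Mir16-2 had a difference of 0.42 (adjusted p = 0.462), Mir15b 0.21 (adjusted p = 0.863) and Mir497 -0.25 (adjusted p = 0.525, at a level of 4.77). In the list of the miR-17 and miR-15 families, 1 of 10 rows rose and none fell, where 4.28% of all clusters passed. The median difference of the list was 0.01. Mir92-2, of the family that miR-17 clusters carry, was at 6.45 with a difference of -0.05.

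Mir130a was 6.68, 6.54, 6.49 and 6.67 in control and 7.41, 7.23, 7.94 and 7.65 in ACDiEKO. miR-130a is known as an angiogenic microRNA that lowers the homeobox factors Gax (Meox2) and Hoxa5. Controls lay close together, and all ACDiEKO samples were higher, by 0.96 ± 0.15 (limma, adjusted p = 0.0165). Its seed relatives were Mir301 (0.53, adjusted p = 0.311), Mir721 (0.10, adjusted p = 0.854) and Mir130b (-0.20, adjusted p = 0.604), none of which passed. The row of Mir680-3 that rose (TC1200001637.mm.1) was 9.36, 9.23, 9.06 and 9.04 in control and 9.90, 9.55, 9.59 and 9.87 in ACDiEKO, a difference of 0.56 ± 0.11 (adjusted p = 0.0396). Over the 3 genes with the seed of miR-680, Mir680-3 among them, differences by gene ran from -0.30 to 0.32, with a median of -0.18. The difference of the named row lies outside that range.

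Mir3095, which lies in the gene of the lysophosphatidic acid receptor Lpar1 and is described after its values were seen, had the largest rise without passing. It was 6.95, 6.45, 5.13 and 6.12 in control and 7.62, 7.84, 9.04 and 7.67 in ACDiEKO, with no overlap and a difference of 1.88 ± 0.46 (limma, adjusted p = 0.0731). Lpar1 differed by 0.70 (adjusted p = 0.0592).

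Of the rows that fell, Mir1192 lies in Klf9, a flow- and hormone-responsive Krüppel-like factor. It was 11.22, 10.46, 10.87 and 10.99 in control and 8.81, 9.77, 9.39 and 9.66 in ACDiEKO. The lowest control stayed above the highest ACDiEKO sample, and the difference was -1.48 ± 0.24 (limma, adjusted p = 0.0205). Klf9 was lower as well, by 1.15 in means of 10.32 and 9.17, and did not pass (adjusted p = 0.0544). The printed sequence of miR-1192 opens with a short run of letters that repeats. Binding of RNA from other places to the Mir1192 row was not tested. Mir465b-2 belongs to a run of microRNAs on the X chromosome that is known from testis. Its values were 9.73, 9.57, 9.22 and 9.40 in control and 8.39, 8.62, 8.65 and 8.28 in ACDiEKO, a difference of -0.998 ± 0.13 (limma, adjusted p = 0.0101), the smallest adjusted p of the microRNA rows. The 3 other rows with its seed, Mir465, Mir465c-2 and Mir465d, had differences of -0.78, -0.60 and -0.73 and did not pass. Their sequences are close, and cross-binding between the 4 rows was not tested.

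Mir1956, in the translation initiation factor gene Eif4e, was 8.25, 8.11, 8.18 and 8.32 in control and 7.995, 7.92, 7.71 and 7.72 in ACDiEKO. The gap between the groups was small, and the difference of -0.38 ± 0.08 was at the threshold (limma, adjusted p = 0.049). Its host differed by 0.40 in the other direction (adjusted p = 0.06). Mir8117, on a row that the array does not place on a chromosome, was 9.98 to 10.43 in control and 9.33 to 9.65 in ACDiEKO (-0.65 ± 0.11, adjusted p = 0.0242). For Mir7230 the ranges were 8.39 to 8.77 and 7.95 to 8.25 (-0.53 ± 0.10, adjusted p = 0.0352).

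Mir28c, in the list of smooth muscle and fibroblast microRNAs, was 11.88, 11.58, 12.93 and 12.70 in control and 10.50, 11.16, 9.30 and 10.11 in ACDiEKO. Groups were apart, with a difference of -2.01 ± 0.46 that did not pass (limma, adjusted p = 0.0577). Mir29b-1 and Mir29a, neighbours on chromosome 6 known for restraining collagen genes, had the same difference, -0.52, with no overlap for Mir29b-1 (adjusted p = 0.0943) and a wide spread for Mir29a (adjusted p = 0.707). Mir143, the smooth muscle microRNA, was 6.79 to 6.96 in control and 6.18 to 7.02 in ACDiEKO, a difference of -0.12 (adjusted p = 0.775). None of the 8 rows of this list rose or fell, where 1.56% of all microRNA rows and 4.28% of all clusters passed. With so few rows, that count cannot be set against the higher smooth muscle marker genes above. Among the blood cell microRNAs, 0 of 7 passed, again too few rows to tell from those shares. Mir142, known from leukocytes, was 5.87, 5.94, 5.48 and 6.06 in control and 6.02, 6.06, 6.67 and 6.96 in ACDiEKO, highest in the sample with the highest leukocyte markers, with a difference of 0.59 (adjusted p = 0.231). Mir155, induced in inflammation, had 0.43 (adjusted p = 0.449).

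The rest of the endothelial and flow list is given by counts. Of 36 rows, 28 lay below 0, 1 fell (Mir125b-2) and none rose, with a median difference of -0.21. Of all clusters, 62.3% lay below 0 and 4.28% passed, and their median was -0.04. The miR-23a, miR-27a and miR-24-2 group on chromosome 8, known from angiogenesis, had differences of -0.70, -0.35 and -0.45 (limma, adjusted p = 0.311, 0.479 and 0.148), each with overlap between the groups. Mir139, in the phosphodiesterase gene Pde2a, was 9.80 to 10.03 in control and 9.37 to 9.68 in ACDiEKO, a difference of -0.30 without overlap (adjusted p = 0.121). Mir10b, in the Hoxd locus, had -0.40 (adjusted p = 0.282). Values close to 0 were found for Mir221 (-0.04), Mir34a (-0.06) and Mir210 (-0.15). Muscle microRNAs gave 0 calls in 10 rows, Mir1b with the widest difference of them (-0.99, adjusted p = 0.23) and Mir486 with 0.01. Of the 11 let-7 rows none passed: apart from Mirlet7c-1, differences ran from -0.40 (Mirlet7b) to 0.22 (Mirlet7f-1).

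Along the Dlk1-Dio3 region, 31 of 40 rows lay below 0, with a median difference of -0.16, and 1 passed, where 62.3% of all clusters lay below 0 and 4.28% passed. That row, Mir665, was 8.74, 8.65, 8.63 and 8.05 in control and 7.68, 7.29, 7.56 and 7.50 in ACDiEKO. Control replicate 4 was the low control and still above all ACDiEKO samples, and the difference was -1.01 ± 0.16 (limma, adjusted p = 0.0195). Mir493 (-0.89, adjusted p = 0.27) and Mir453 (-0.75, adjusted p = 0.18) came next. The long non-coding RNAs of the locus lie on rows that name several symbols and were looked up after the microRNA values were seen. The row of Meg3, the maternally expressed transcript at the start of the region, was 9.74, 10.13, 10.45 and 9.68 in control and 9.29, 8.99, 9.17 and 9.04 in ACDiEKO. It fell by 0.88 (adjusted p = 0.0399). Rian and Mirg, further along, had -0.74 (adjusted p = 0.0969) and -0.54 (adjusted p = 0.147).

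**Figure D4:**
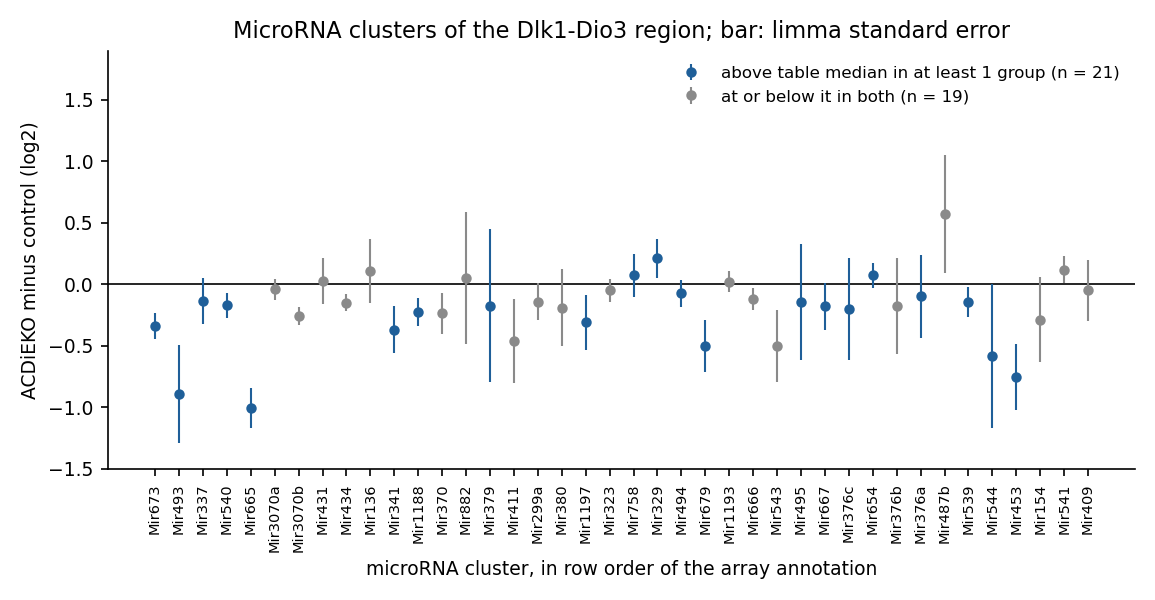
Difference between ACDiEKO and control (y axis, log2) with limma standard errors for 40 microRNA clusters of the Dlk1-Dio3 region, in row order. Blue marks 21 rows above the table median in at least 1 group and grey the 19 others; 31 of 40 points lie below 0, with Mir665 (-1.01) and Mir493 (-0.89) lowest.

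Position was examined for the whole set. With 1 row per gene, 462 microRNA genes had a strand and a row on their RefSeq chromosome, and 146 of them fell into 41 groups of neighbours no more than 10 kb apart on 1 strand. The median difference was below -0.5 in 3 groups, the miR-99a with let-7c, miR-181 and miR-29 pairs, and above 0.5 in 0 groups. Seeds were shared by 2 or more genes in 82 of 681 cases. The seed of miR-181 had a median difference of -0.61 over 4 genes and that of miR-465 -0.75 over 4, while those of miR-15 and miR-130 had 0.32 and 0.31 over 4 each. The let-7 seed had -0.13 over 12 genes, and the miR-30 seed -0.14 over 5. The seeds named here are a few of the 82, and no rule set beforehand chose them.

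Host genes were set beside the microRNAs inside them. Of 517 rows with a strand, 234 name a microRNA that RefSeq places in a gene on the same strand, and for 183 of these the host had a row of its own. In 18 of the 183 the microRNA row was not at that locus by its identifier (another or no chromosome, or over 20 row numbers from the host), and they were left out by a rule set after the values were seen. The 165 others had 147 hosts, each read on the brightest row of its symbol. Of these hosts 15 (10.2%) passed, 5 higher and 10 lower. Over all clusters 4.28% passed, and 12.1% of clusters above the table median in at least 4 samples when only those were tested. That second share comes from a separate fit with its own adjustment, so the share among hosts cannot be set against it. For 0 of the 15 passing hosts did the microRNA row pass too, where 1.56% of all microRNA rows passed. The pairs named next were chosen after their values were seen. Igf2, the growth factor gene around Mir483, fell by 1.33 (limma, adjusted p = 0.00324), with 9.32, 9.31, 9.14 and 9.02 in control and 7.73, 8.11, 7.93 and 7.68 in ACDiEKO, while Mir483 had a difference of 0.35 (adjusted p = 0.416). Kif20b, a mitotic kinesin, rose by 2.29 (adjusted p = 0.0147), and the row of Mir1950 inside it (TC1900000509.mm.1) had a difference of -0.30. Only Tmem184b with Mir1943, of the 4 rows whose host passed by 1 or more, had a microRNA difference of at least 0.5 in the host's direction (-1.004 and -0.97; microRNA adjusted p = 0.0575). Over 97 rows above the table median, the differences of row and host had a Pearson correlation of 0.413, a description across rows that share samples. The difference between a host's change and its microRNA's was not tested.

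**Figure D5:**
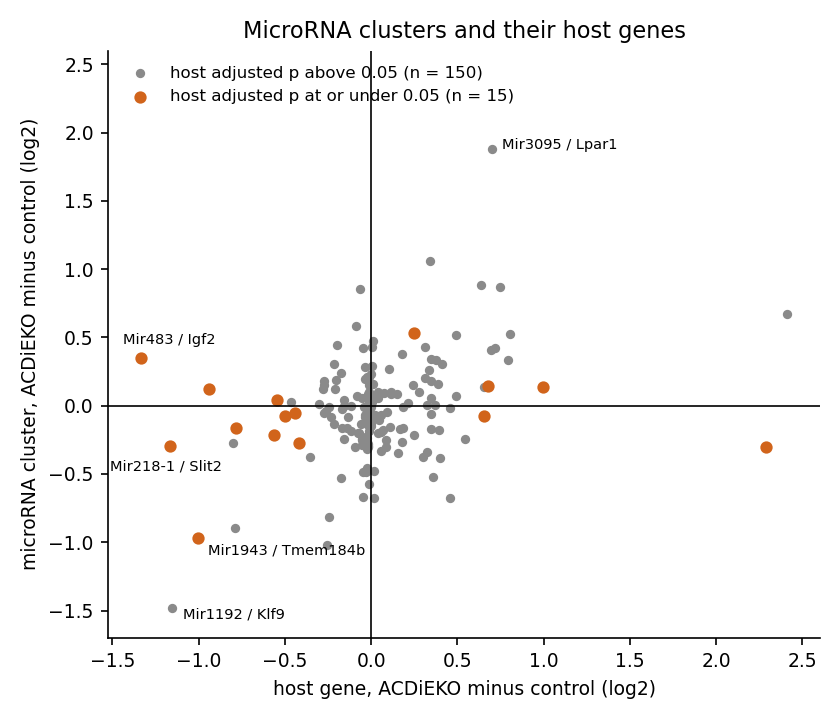
Difference of the microRNA cluster (y axis, log2) against that of its host gene (x axis, log2) for 165 rows, with the 15 rows whose host passed at an adjusted p of 0.05 in orange. Of the orange points, Mir1943 in Tmem184b (-0.97) and Mir7-1 in Hnrnpk (0.54) lie furthest from the horizontal line at 0.

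The genes that make and use microRNAs were measured on the same arrays. Of 31 genes in the list, 25 had a row of their own, and each was read on its brightest row. Of these 3 rose and 1 fell, with a median difference of -0.004, where 1.96% of all clusters rose and 2.32% fell. Most of these rows were bright. When only clusters above the table median were tested 12.1% passed, and above the 75th percentile 19.2%. In these separate fits 4 and 5 genes of the list passed. Ran, the small GTPase that drives export through exportin 5, was 9.001, 9.04, 9.25 and 9.09 in control and 9.98, 9.86, 10.00 and 9.81 in ACDiEKO, a rise of 0.81 (limma, adjusted p = 0.00334). Xpo5, exportin 5 itself, rose by 0.66 (adjusted p = 0.0482), as did Hsp90aa1, a chaperone used in loading Argonaute, by 0.66 (adjusted p = 0.0123). Tnrc6c, a silencing partner of Argonaute, was 11.47, 11.09, 11.46 and 11.52 in control and 10.59, 10.46, 10.36 and 10.60 in ACDiEKO and fell by 0.88 (adjusted p = 0.0084). Drosha (-0.16, adjusted p = 0.378), Dicer1 (0.28, adjusted p = 0.172) and Ago2 (0.17, adjusted p = 0.372) did not pass. Ran, Hsp90aa1 and other members of this list have many uses outside the microRNA pathway.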

How the data were processed

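The deposited values are log2 values per transcript cluster that the authors made with RMA, per the submitters' processing notes, from mouse Clariom D arrays hybridised with 5 ng RNA each; RMA corrects background, normalizes arrays and summarises probes. The version, build and annotation are not given in the sources used here. Of 72688 features, 6732 array controls were left out. Rows were named through the platform annotation, and 640 of 641 microRNA rows matched a RefSeq gene. A further 537 rows that name a microRNA beside other symbols are no members. Groups were compared over all 65956 clusters, unfiltered, using lmFit and eBayes (limma 3.58.1, R 4.3.3), two-sided, with Benjamini-Hochberg adjustment at 0.05. The microRNA set, the lists and the tests were chosen with earlier results of these data known. Named rows are those that passed, the 10 brightest (ties included in the text), and those of the endothelial, miR-17, smooth muscle and muscle lists above the table median, with hosts and passing processing genes; others were chosen after their values were seen. Each array is 1 animal, and the number of arrays limits the precision. The fit was tested on simulated data. Alternatives tried were scaling, filters, variance model, array weights, a replicate block, animal numbers, left-out samples and the threshold. As a check of pairing by replicate number, the deviations of same-numbered arrays correlated at -0.0606, -0.0865, 0.0313 and -0.0165, so they do not pair the arrays.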

Additional observations from a re-analysis of the deposited data

Results flagged for a closer look

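In 112 pairs of a named microRNA row and a group of 4 samples, 8 had 1 sample whose gap to its nearest neighbour exceeded Dixon's 95% critical value; chance gives about 1 in 20. Mir30a in ACDiEKO replicate 3 was 11.26, with the others at 10.31 to 10.47. Mir3095 in ACDiEKO replicate 4 was 9.04 (others 7.62 to 7.84), and Mir669e (TC0800002101.mm.1) in the same sample 17.64 (others 17.92 to 17.94). Mir34a in ACDiEKO replicate 5 was 5.88 (others at 6.15). Mir143 in ACDiEKO replicate 3 was 6.18 (others 6.89 to 7.02). In the mean of ACDiEKO replicates 1 and 2, Mir483 was 11.84 (others 12.38 to 12.48) and Mir3107 was 6.59 (others 6.81 to 6.85). Mir665 in control replicate 4 was 8.05 (others 8.63 to 8.74).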

How the results depend on the processing

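The signs of the 10 calls held in the fits that tested them (6 of 10 with the filter at the 75th percentile), and their number did not. Main counts were 3 microRNA rows higher and 7 lower, 2824 clusters of the table and 4 processing genes. With all 9 arrays as samples these were 6, 21, 4692 and 4; without both near-identical arrays 2, 3, 1260 and 3; with animal numbers as a term 0, 2, 1234 and 3; and without the 2 controls of other numbers 0, 0, 58 and 1. Quantile normalization gave 6 and 9 rows, the filter at the table median 6 and 20, that at the 75th percentile 3 and 15, and a threshold of 0.10 gave 7 and 23 with 4882 clusters. Median centring moved the median difference of microRNA rows from -0.074 to -0.013. Leaving out 1 sample gave 1 to 3 rows higher and 1 to 9 lower. The median difference was then -0.081 to -0.06, with 3 to 4 processing genes and 1134 to 2056 clusters. Leaving out 1 of the 2 near-identical arrays, so that the other stood for both, removed no sample and gave 2786 or 2727 clusters. Above the 75th percentile lay 142 rows, above the table median 359. With the rows added whose other symbol is a second name, chosen after seeing the data, 5 were higher and 10 lower. The replicate block, for numbers that do not pair the arrays, gave 4 higher and 6 lower, 1710 clusters and 3 of the 10 calls (Mir130a, Mir15a, Mir680-3). For single named rows, 1040 alternatives kept the call or its absence, 70 lost it and 35 gained it, with 0 reversed. Signal over background limits the dim rows, of which 256 lay at or below the table median in both groups.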
